A study of Mus musculus with 6 samples.

Results

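The interferon regulatory factors (IRFs) are a family of transcription factors, and the 8 mouse genes Irf1, Irf2, Irf3, Irf4, Irf5, Irf7, Irf8 and Irf9 were taken by symbol from the 24054 genes counted in gastrocnemius muscle. All 8 passed the filter on low counts, which kept 12660 genes. The 6 RNA-seq libraries came from male C57BL/6 mice, 3 with muscle-specific IRF4 knockout (MI4KO) and 3 with muscle-specific IRF4 overexpression (MI4OE). MI4KO mice carry a floxed Irf4 gene that the Myl1-Cre driver deletes in skeletal muscle fibres. MI4OE mice carry the same driver and a Rosa26-LSL-IRF4 allele, in which Cre removes a stop cassette ahead of an IRF4 transgene. Myl1-Cre is thus shared by both groups, and neither the deletion nor the transgene is directed to immune, vascular or connective tissue cells of the muscle. The food label reads high fat for all 6 libraries, but the study's text describes chow feeding, so the diet is uncertain. The labels give no age. Gastrocnemius of wild-type or flox mice was not analysed here. A difference below is thus MI4OE against MI4KO, and it does not show in which genotype a level left its normal value.

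IRF proteins share an amino-terminal DNA-binding domain that recognises GAAA repeats, which make up the interferon-stimulated response element (ISRE). IRF3, IRF5 and IRF7 are activated downstream of nucleic acid and Toll-like receptor sensors and drive interferon transcription. IRF9 is the DNA-binding subunit of the complex that carries the type I interferon signal to the nucleus, and IRF1, IRF7 and IRF9 are themselves interferon-inducible. IRF2 mostly opposes IRF1. IRF4 and IRF8 are best known in lymphoid and myeloid cells, where they bind composite elements with partners such as PU.1, and IRF4 also acts in fat and muscle metabolism. The comparison addresses whether the transcript levels of the other members differ between muscle with Irf4 deleted in its fibres and muscle with an excess of IRF4.

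The promoters show which members carry the letters of these elements close to their start. The 250 bases upstream of each RefSeq start site (GRCm38.p6) were searched on both strands for 3 letter patterns. The ISRE core was read as GAAA and GAAA with any 2 bases between them, and the ETS-IRF composite element as GGAA and GAAA with any 2 bases between. The gamma-activated site, which STAT dimers bind, was read as TTC and GAA with any 3 bases between. Entries were found for all 8 genes. A match occurred at 3 of their 11 start sites, those of Irf1, Irf2 and Irf8, which are printed 5′ to 3′ on the plus strand with the matches in capitals. They lie at chr11:53769764-53770013 (Irf1), chr8:46739495-46739744 (Irf2) and chr8:120736108-120736357 (Irf8).

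Irf1: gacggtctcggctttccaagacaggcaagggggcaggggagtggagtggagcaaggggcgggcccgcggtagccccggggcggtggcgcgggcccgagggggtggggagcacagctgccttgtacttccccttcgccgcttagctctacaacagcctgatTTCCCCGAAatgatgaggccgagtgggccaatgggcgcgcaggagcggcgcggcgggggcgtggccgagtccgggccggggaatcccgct

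Irf2: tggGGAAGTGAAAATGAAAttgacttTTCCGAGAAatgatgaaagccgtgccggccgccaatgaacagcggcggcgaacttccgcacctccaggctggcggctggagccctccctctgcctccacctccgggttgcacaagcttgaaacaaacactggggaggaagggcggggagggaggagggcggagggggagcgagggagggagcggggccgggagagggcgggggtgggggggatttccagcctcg

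Irf8: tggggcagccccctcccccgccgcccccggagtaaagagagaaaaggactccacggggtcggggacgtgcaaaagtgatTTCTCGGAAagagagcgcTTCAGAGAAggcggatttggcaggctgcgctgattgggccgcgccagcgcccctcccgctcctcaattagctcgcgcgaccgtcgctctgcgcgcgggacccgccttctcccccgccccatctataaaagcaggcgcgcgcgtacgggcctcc

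Irf1 carried 1 gamma-activated site, TTCCCCGAA, from 90 to 82 bases upstream. In Irf2 the composite element GGAAGTGAAA and the ISRE core GAAAATGAAA overlapped within 1 run of capitals, followed by the gamma-activated site TTCCGAGAA. Irf8 held the gamma-activated sites TTCTCGGAA and TTCAGAGAA. Among 32851 RefSeq promoter windows of the same length, 2.98% held the ISRE core, 2.3% the composite element and 7.02% the gamma-activated site. The windows of Irf3, Irf4, Irf5, Irf7 and Irf9 held none of the 3 letter patterns. A match is a run of letters and not a measured binding site, and these libraries hold no binding data.

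Total expected counts ranged from 18828605 to 29239585 per library, so 3 counts correspond to 0.101 to 0.148 CPM (counts scaled to library size). The 10 most abundant genes took 25.5% of MI4OE replicate 1 and 32.8% to 36.8% of the other libraries. That library also had the lowest sum of 12 muscle fibre markers (224000 TPM, the length-adjusted abundance, against 301000 to 342000) and the highest sum of 10 slow-fibre genes (10800 TPM against 21.6 to 1050). The slow-fibre genes differed widely within MI4OE, and all 10 had a positive log2 fold change, 8 of them at least 1.5-fold with an unadjusted p under 0.05 (edgeR), against 6.64% of all genes in either direction. Without MI4OE replicate 1, or without MI4KO replicate 1, that count was 0, the fits over all genes giving 4.56% and 4.88%. These markers were not used to group libraries. In bulk muscle, fewer cells of a type and less RNA per cell cannot be told apart.

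Irf4 served as a check on the order of the 2 genotype labels. Its expected counts were 6, 0 and 2 in the MI4KO libraries and 2864, 10557 and 5911 in the MI4OE libraries. Scaled for depth, its level was 0.246, 0 and 0.0672 CPM in MI4KO and 141, 369 and 261 CPM in MI4OE. All MI4OE libraries lay far above all MI4KO libraries, as the labels require. Without wild-type or flox gastrocnemius, these values do not show how far the deletion itself lowered Irf4. The log2 fold change was 11.24 ± 0.78 (SE, n = 3 per group) with an adjusted p of 0.0055 in edgeR's quasi-likelihood test. With only 8 counts summed over MI4KO, the fitted size depends on the prior count. The depth-scaled ratio of the summed counts was 2680, with a 95% interval of 1360 to 6210 that covers counting error only. Without MI4KO replicate 1, which held 6 of the 8 counts, the same test gave 12.61 on the log2 scale at an adjusted p of 0.0587. Within MI4OE the highest level was 2.62 times the lowest.

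The files list 1 Irf4 transcript, NM_013674, 4683 bases long. It took every Irf4 count, so no change of transcript could be seen. Reads cannot be placed within the gene from these files, so the few MI4KO counts were not assigned to deleted or remaining exons or to cells outside the Cre target. Which part of the transcript the transgene holds is not given in the sources used here, and TPM divides by the whole transcript. Gt(ROSA)26Sor, the noncoding gene at the transgene locus, was also higher in MI4OE, though within MI4OE it did not follow the level of Irf4. It measured 0.778, 0.713 and 0.504 CPM in MI4KO and 69.9, 70.0 and 87.3 CPM in MI4OE, a log2 fold change of 6.83 ± 0.24 (adjusted p = 7.57e-05, edgeR).

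**Figure D1:**
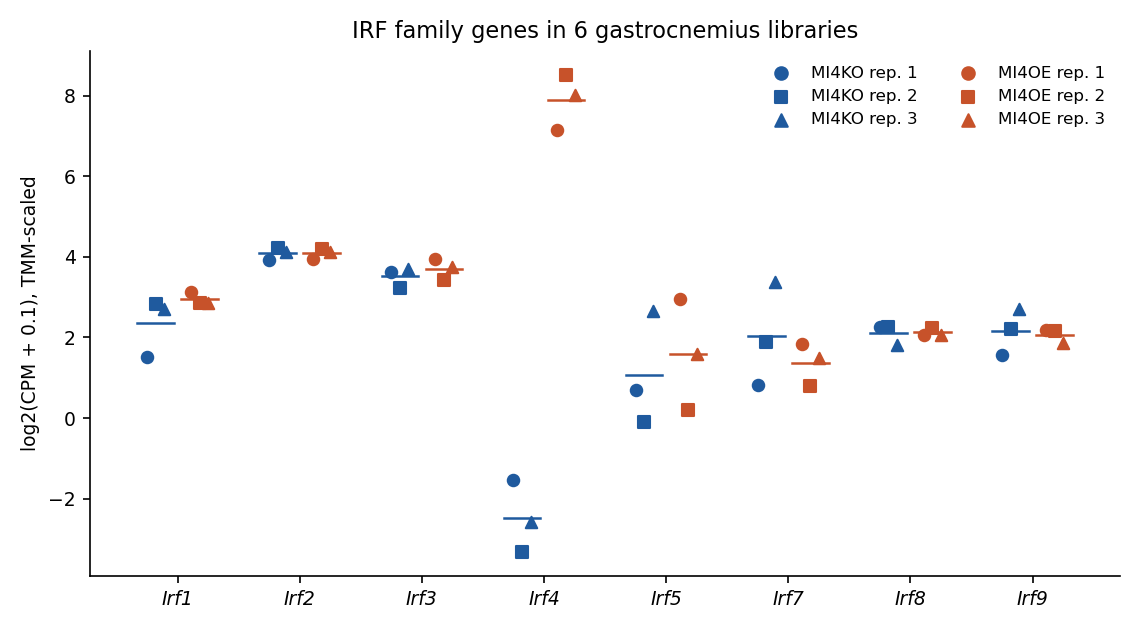
The vertical axis gives log2(CPM + 0.1) with TMM-scaled CPM for each IRF gene. Each point is 1 library, blue for MI4KO and orange for MI4OE, with the replicate number as the symbol, and short lines are group means. Irf4 separates the genotypes by far more than any other member. The MI4OE points of Irf2, Irf8 and Irf9 lie inside the MI4KO range.

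Across the family, 1 of 8 members was called at an adjusted p of 0.05, namely Irf4, against 0.0237% of all 12660 genes tested (3 genes). By the study's criterion of at least 1.5-fold and an unadjusted p under 0.05, 1 of 8 passed, again Irf4, against 6.64% of all genes (841). On the CPM scale the genotypes did not overlap for 2 of 8, Irf4 and Irf1, against 12.9% of all genes (1628). On the TPM scale Irf1 overlapped. Among the 7 members other than Irf4, 4 had a positive and 3 a negative log2 fold change. Their median was 0.01, beside 0 for all genes tested, and their lowest adjusted p was 0.785. A p above the threshold does not show equal levels, so the 95% interval is given with each gene.

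**Figure D2:**
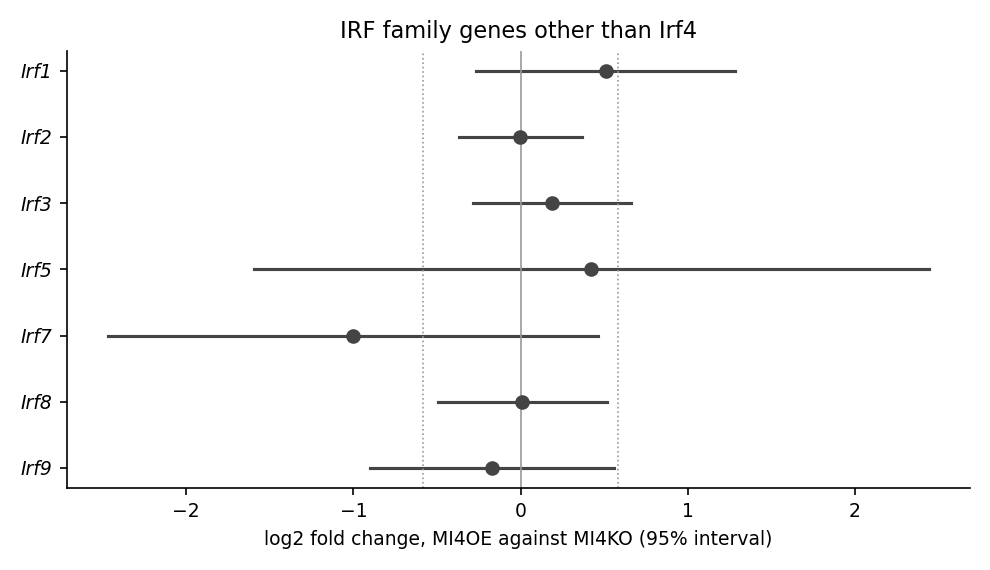
Points are log2 fold changes of MI4OE against MI4KO for the 7 members other than Irf4, and bars are 95% intervals from edgeR's quasi-likelihood fit (n = 3 per group). The solid line marks 0 and the dotted lines mark 1.5-fold in either direction. All 7 intervals include 0. Those of Irf2 and Irf8 stay within the dotted lines, and those of Irf5 and Irf7 are the widest.

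Among the sensor-activated factors, Irf3 was the steadiest. This constitutively made factor starts the first wave of interferon transcription once it is phosphorylated. It measured 12.3, 9.31 and 12.8 CPM in MI4KO and 15.3, 10.7 and 13.3 CPM in MI4OE. The 2 groups overlapped, with the lowest value in MI4KO and the highest in MI4OE. MI4OE exceeded MI4KO by 0.19 ± 0.20 on the log2 scale (SE, adjusted p = 0.872, edgeR), and the interval spans 0.822-fold to 1.58-fold. Leaving out 1 library gave 0.05 (without MI4KO replicate 2) to 0.32 (without MI4OE replicate 2).

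Irf7, the interferon-inducible amplifier of interferon transcription, varied widely within MI4KO. It measured 1.68, 3.57 and 10.3 CPM in MI4KO and 3.49, 1.64 and 2.69 CPM in MI4OE. Replicate 3 alone set the high end of MI4KO, and the other MI4KO libraries fell among or next to the MI4OE libraries. On the log2 scale the difference was -1.004 ± 0.63 (SE, adjusted p = 0.785, edgeR), with an interval from 0.181-fold to 1.38-fold. It was -0.03 without MI4KO replicate 3. Without MI4KO replicate 1 it was -1.42, which passed the 1.5-fold criterion at an adjusted p of 0.843 (edgeR).

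Irf5, a factor downstream of Toll-like receptors and found mainly in myeloid cells, spread widely in both genotypes. It measured 1.51, 0.832 and 6.18 CPM in MI4KO and 7.67, 1.05 and 2.91 CPM in MI4OE. High and low libraries occurred on each side, and the groups overlapped over most of their range. Its log2 fold change was 0.42 ± 0.87 (adjusted p = 0.939, edgeR). The interval of 0.331-fold to 5.43-fold leaves a several-fold change in either direction unresolved, and the sign turned to -0.54 without MI4OE replicate 1. The summed CPM of 13 macrophage markers was 60.4, 50.8 and 90.1 in MI4KO and 78.5, 36.9 and 69.5 in MI4OE. MI4KO replicate 3 and MI4OE replicate 1 were the highest libraries for both Irf5 and these markers, and the part of macrophage content in the Irf5 spread was not tested. Irf5 overlaps Tnpo3 in the RefSeq annotation, and whether the counting used the strand is not given in the sources used here.

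Irf9, which carries the type I interferon signal to DNA, overlapped fully between genotypes. It measured 2.87, 4.52 and 6.48 CPM in MI4KO and 4.43, 4.37 and 3.53 CPM in MI4OE. All 3 MI4OE values lay between the lowest and highest MI4KO values. Its log2 fold change was -0.17 ± 0.31 (adjusted p = 0.929, edgeR) with an interval of 0.536-fold to 1.47-fold, and it was 0.14 without MI4KO replicate 3.

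Irf1, an activator of interferon-gamma targets and antigen presentation genes, was the only member other than Irf4 whose genotypes did not overlap in CPM, though they did in TPM, where 6.27 in MI4KO replicate 2 lay among 6.32, 6.15 and 5.92 in MI4OE. It measured 2.78, 6.97 and 6.41 CPM in MI4KO and 8.71, 7.2 and 7.15 CPM in MI4OE. The closest libraries of the 2 genotypes were 6.97 and 7.15 CPM, and most of the gap between means came from the low level in MI4KO replicate 1. The difference was 0.51 ± 0.33 on the log2 scale (adjusted p = 0.796, edgeR) with an interval of 0.831-fold to 2.43-fold. Without MI4KO replicate 1 it was 0.19. That library was also the lowest of the 6 for Irf2 and Irf9.

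Irf2, which competes with Irf1 for the same elements, showed the narrowest interval of the family. It measured 15.1, 18.7 and 17.2 CPM in MI4KO and 15.3, 18.2 and 17.4 CPM in MI4OE. The MI4OE values fell entirely within the MI4KO range. Its log2 fold change was 0.00 ± 0.16 (adjusted p = 1, edgeR), and the interval was 0.776-fold to 1.29-fold. The group means differed by less than the spread between libraries. Whether IRF4 acts on the composite and ISRE letters in the Irf2 promoter window was not tested.

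Irf8 is the member closest in sequence and DNA recognition to Irf4. It measured 4.67, 4.68 and 3.39 CPM in MI4KO and 4.08, 4.61 and 4.11 CPM in MI4OE. The MI4OE values again lay inside the MI4KO range. The log2 fold change was 0.01 ± 0.22 (adjusted p = 0.997, edgeR), and the interval of 0.709-fold to 1.43-fold lies within 1.5-fold in either direction. Irf8 is typical of myeloid and B cells, and its level here did not follow the macrophage marker sum, which was highest in MI4KO replicate 3, where Irf8 was lowest.

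Levels of different members were compared on the length-adjusted TPM scale. In MI4KO the order by mean TPM was Irf2, Irf3, Irf7, Irf1, Irf9, Irf8, Irf5 and Irf4. The place of Irf7 before Irf1 rested on MI4KO replicate 3, at 9.62 TPM against 1.3 and 3.86 TPM in replicates 1 and 2. In MI4OE the order was Irf4, Irf2, Irf3, Irf1, Irf5, Irf9, Irf8 and Irf7. Irf4 thus moved from the last place to the first.

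Irf2 ranged from 8.33 to 14.25 TPM over the 6 libraries and Irf3 from 8.35 to 11.57 TPM, so these neighbours did not differ beyond their spread. Irf1 ranged from 1.8 to 6.32 TPM and lay below Irf3 throughout. Irf7 (1.3 to 9.62 TPM), Irf9 (1.61 to 4.33 TPM), Irf8 (1.95 to 3.12 TPM) and Irf5 (0.73 to 5.39 TPM) overlapped one another and Irf1. The highest Irf7 value, in MI4KO replicate 3, also lay inside the ranges of Irf2 and Irf3.

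The 8 genes together summed to 24.7, 40.5 and 47.2 TPM in MI4KO and 85.9, 176.4 and 134.9 TPM in MI4OE. Irf4 made up 0.284%, 0% and 0.0424% of that sum in MI4KO and 52.6%, 78.7% and 70.6% in MI4OE (67.3% ± 13.4, SD, n = 3). Most of this sum in the overexpressor was therefore Irf4.

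Without Irf4, the other 7 members summed to 24.6, 40.5 and 47.2 TPM in MI4KO and 40.8, 37.6 and 39.65 TPM in MI4OE. The means were 37.4 ± 11.6 and 39.3 ± 1.62 TPM (SD, n = 3 per group). The MI4OE libraries lay inside the MI4KO range, and their difference was smaller than the MI4KO spread. Within that sum Irf7 took 5.29%, 9.54% and 20.4% in MI4KO and 7.41%, 4.45% and 6.89% in MI4OE, so MI4KO replicate 3 owed its high total partly to Irf7.

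**Figure D3:**
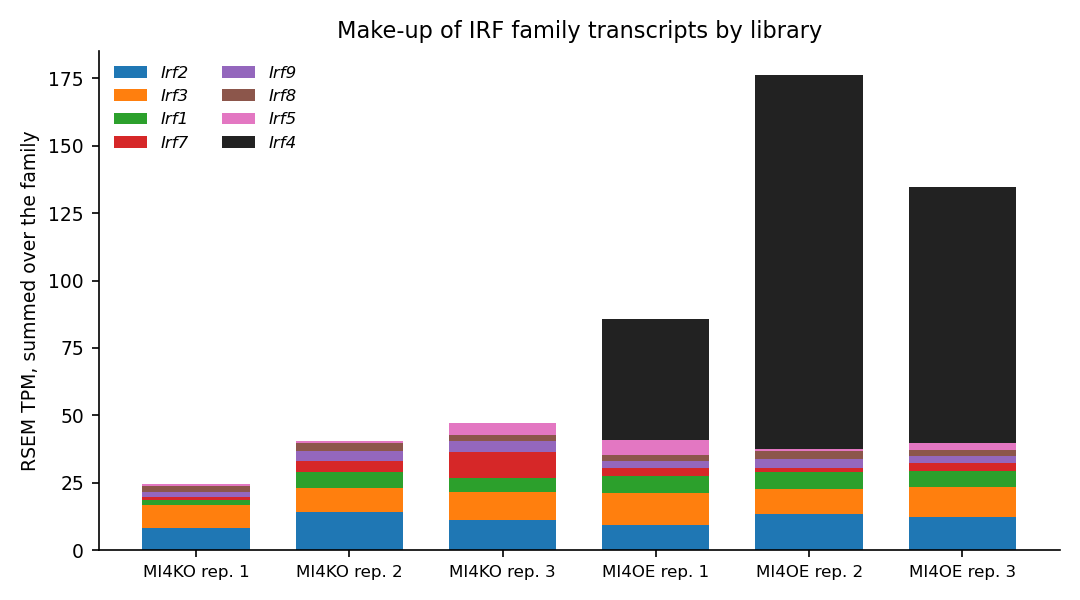
Each bar is 1 library, and its height is the RSEM TPM summed over the 8 IRF genes, with 1 colour per gene. The Irf4 segment, in black, takes 52.6% to 78.7% of the MI4OE bars and is not visible in MI4KO. The remaining segments add up to 24.6 to 47.2 TPM in MI4KO and 37.6 to 40.8 TPM in MI4OE.

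RSEM also divides the counts of each gene among its listed transcripts, and these shares are estimates. Irf2, Irf4 and Irf8 have 1 transcript each. For Irf3, the noncoding transcript NR_045611 took 3.23%, 20.68% and 10.21% in MI4KO and 14.4%, 9.78% and 34.6% in MI4OE. The highest share was in MI4OE replicate 3, and the groups overlapped.

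For Irf1, NM_008390 took 93.85%, 79.92% and 75.96% in MI4KO and 91.26%, 73.52% and 89.67% in MI4OE, and was the main form in every library. The 3 transcripts of Irf7 had no stable order. NM_001252601 took 0%, 29.82% and 60.2% of Irf7 in MI4KO and 0.99%, 53.33% and 100% in MI4OE, on 41 to 307 counts per library. The shares of Irf9 were as unsteady, with NM_008394 at 24.22% to 100% across the 6 libraries. Irf5 was assigned to NM_012057 alone in 4 libraries, which held 74.35% to 100% overall. For every listed transcript of these 5 genes, the shares overlapped between genotypes.

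The genes around the family were read from lists of its ligands, receptors, upstream sensors, partners and targets. None of their genes was called at an adjusted p of 0.05 in edgeR's quasi-likelihood test, which called 3 genes in the whole table and left 959 at an unadjusted p under 0.05. DESeq2 and the edgeR exact test called none of them either. Of 21 interferon ligand genes, 2 had any count, Ifnz with expected counts of 0.58 and 1 in MI4OE replicates 1 and 2, and Ifng with 1 in MI4OE replicate 3. All 21 were at 0 counts in MI4KO, which allows a level of up to 0.101 to 0.123 CPM per library, and none passed 1 count per library in MI4OE.

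Of 13 receptor and JAK-STAT genes tested, 5 had a positive and 8 a negative log2 fold change, with a median of -0.28, and 2 passed the 1.5-fold criterion, which 6.64% of all genes passed in either direction. Both were lower in MI4OE. Leaving out 1 library moved the median between -0.40 (without MI4KO replicate 1) and -0.03 (without MI4KO replicate 3). The number lower at the criterion was 3 without MI4KO replicate 1 (4.88% of all genes in that fit) or MI4OE replicate 2 (10.2%), where 1 gene also passed as higher. It was 1 without MI4KO replicate 2, MI4KO replicate 3 or MI4OE replicate 3, in fits where 5.2% to 7.56% of all genes passed. Jak2, the kinase of the interferon-gamma receptor, measured 62.5, 66.8 and 50.4 CPM in MI4KO and 29.2, 40.0 and 38.2 CPM in MI4OE. Every MI4OE library lay below every MI4KO library. The log2 fold change was -0.74 ± 0.19 (unadjusted p = 0.00471, adjusted p = 0.495, edgeR).

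Usp18, which dampens type I interferon receptor signalling, was the other at that criterion, with a log2 fold change of -0.88 (unadjusted p = 0.0466, adjusted p = 0.652, edgeR). It missed the criterion with total counts, in both limma fits and without MI4KO replicate 2, MI4KO replicate 3, MI4OE replicate 1 or MI4OE replicate 3, where the unadjusted p ran from 0.0677 to 0.181. Jak1, a kinase shared by the interferon receptors, measured 153, 175 and 140 CPM in MI4KO and 68.9, 156 and 125 CPM in MI4OE. The groups overlapped, MI4OE replicate 1 was the lowest library, and the value on the log2 scale was -0.42 (adjusted p = 0.812, edgeR). Il10rb, a shared interferon-lambda receptor chain, overlapped between genotypes and stood at 0.54 on the log2 scale (adjusted p = 0.788, edgeR).

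Of 18 upstream sensors, adaptors and kinases tested, 10 were positive and 8 negative, the median log2 fold change was 0.02, and none passed the 1.5-fold criterion. The 4 genes with the lowest p were Slc15a4 (-0.71), Tmem173, which encodes STING (0.49), Mavs (0.19) and Irak4 (0.41), and their lowest adjusted p was 0.683 in edgeR. Of 16 partners and cofactors tested, 12 were positive and 4 negative, with a median of 0.15 and none at the criterion. Over the fits without 1 library, the median of the partners ran from 0.08 (without MI4KO replicate 1) to 0.23 (without MI4KO replicate 2), and the most at the criterion were 1 higher and 2 lower, without MI4KO replicate 3, against 7.56% of all genes. For the sensors the median ran from -0.04 to 0.08 over these fits, and at most 1 gene passed.

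Spi1, which encodes the IRF4 and IRF8 partner PU.1, measured 1.27, 0.634 and 1.54 CPM in MI4KO and 1.57, 0.454 and 1.02 CPM in MI4OE. The groups overlapped over nearly their whole range. The AP-1 partner Batf, which pairs with IRF4 in lymphocytes, stayed at or below 0.0883 CPM in all 6 libraries. Spi1 and Batf were picked as known partners after their values were seen. Among the partners with the lowest p were Swap70 (log2 fold change 0.54), Junb (-1.15), Irf2bp2 (-0.65) and Jun (0.37), with a lowest adjusted p of 0.665 in edgeR. Junb was 48.4 CPM in MI4KO replicate 1 and 7.51 to 16 CPM elsewhere.

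Interferon-stimulated genes, the usual targets of the IRF9 complex, had mostly negative log2 fold changes. Of 26 tested, 25 had a negative log2 fold change, the median was -0.63, and 4 passed the 1.5-fold criterion, all lower in MI4OE, against 6.64% of all genes in either direction. With limma on TPM the median was -0.31 and 1 gene passed at a pseudocount of 1, and -0.41 and 2 genes at 0.1, against 3.7% and 5.81% of all genes in those fits. Those 4 were Cxcl10, a chemokine (-1.59, adjusted p = 0.546), Iigp1, an immunity-related GTPase (-1.54, adjusted p = 0.58), Oas3, an oligoadenylate synthetase (-1.42, adjusted p = 0.522), and Tap1, a peptide transporter (-1.29, adjusted p = 0.626), all from edgeR. Iigp1 and Tap1 missed the criterion in both limma fits and without MI4KO replicate 2, MI4KO replicate 3, MI4OE replicate 1 or MI4OE replicate 3, and Tap1 also with total counts. Cxcl10 missed it without MI4KO replicate 3, MI4OE replicate 1 or MI4OE replicate 3, and Oas3 in the limma fit with a pseudocount of 1.

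These values were uneven among libraries. The summed CPM of all 30 listed genes was 138, 265 and 353 in MI4KO and 193, 154 and 155 in MI4OE. MI4KO replicate 1 lay below all MI4OE libraries and the other MI4KO libraries above them. The median log2 fold change was -1.07 without MI4KO replicate 1, when 16 of 28 genes tested passed the criterion against 4.88% of all genes in that fit. It was -0.22 without MI4KO replicate 3, when 1 of 26 passed against 7.56% of all genes. Irf7 and Irf9 shared the high value of MI4KO replicate 3 and the low values of MI4KO replicate 1, as the plot of interferon-linked genes by library shows. Irf1 shared the low value of MI4KO replicate 1 but not the high values.

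**Figure D4:**
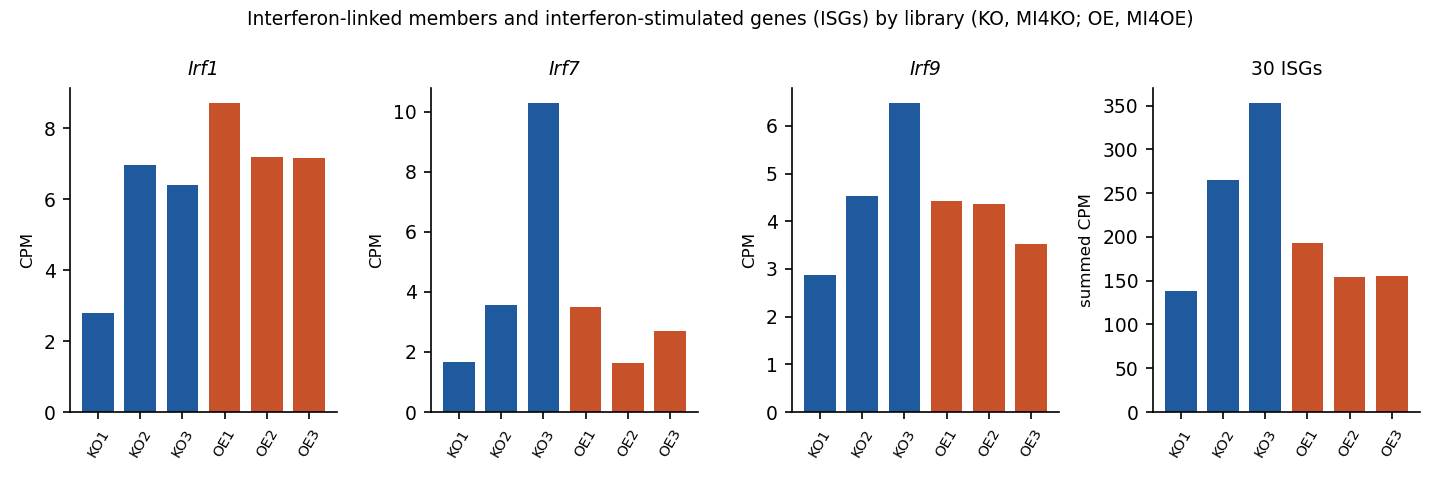
Bars give TMM-scaled CPM of Irf1, Irf7 and Irf9, and the summed CPM of the 30 interferon-stimulated genes (ISGs), in each library, blue for MI4KO and orange for MI4OE, with replicates numbered. MI4KO replicate 1 is the lowest library for Irf1, Irf9 and the sum. MI4KO replicate 3 is the highest for Irf7, Irf9 and the sum.

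**Figure D5:**
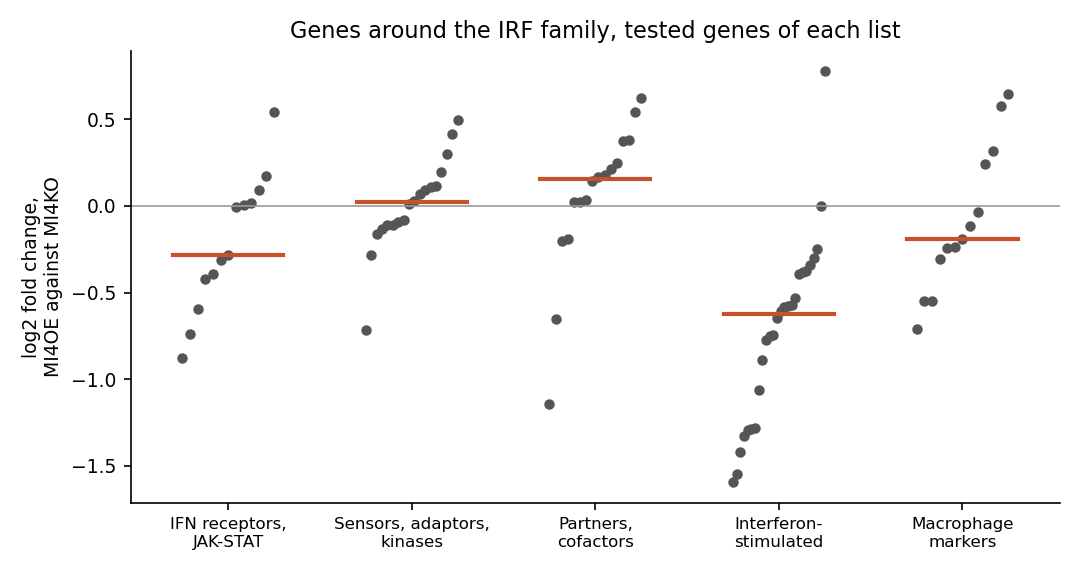
Each point is 1 tested gene, its height the log2 fold change of MI4OE against MI4KO, and orange lines are list medians. Points are spread sideways in rank order only. The lists are receptors and JAK-STAT genes, sensors, partners, interferon-stimulated genes and macrophage markers. Among these 5 the interferon-stimulated genes have the lowest median, -0.63, and the sensors and partners lie near 0.

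Markers of dendritic, B and T cells, which can also express Irf4, Irf5 or Irf8, were scarcer than the macrophage markers, which summed to 48.2 to 123 TPM. The summed TPM of 8 dendritic cell markers was 1.26 to 3.96 over the 6 libraries, and 2 of them were deep enough to test. B and plasma cell markers summed to 0.58, 1.93 and 1.63 TPM in MI4KO and 2.44, 2.57 and 2.08 TPM in MI4OE, with Pax5 at 0 in every library, and T cell markers to 0.08 to 1.4 TPM, with none deep enough to test. The dendritic cell sum was 1.26, 2.63 and 2.18 TPM in MI4KO and 3.07, 3.27 and 3.96 TPM in MI4OE. Neither of these sums overlapped between genotypes, but 1 gene made up most of each, Zbtb46 for dendritic cells and Sdc1 for B and plasma cells. In TPM, Zbtb46 overlapped (0.99, 2.23 and 1.42 against 1.94, 2.42 and 2.27), whereas Sdc1 did not (0.49, 1.51 and 1.28 against 1.59, 2.41 and 1.73). Siglech and Cd209a did not overlap either, but both were too low to test and were picked after their values were seen. In MI4KO they had at most 3 counts per library, and the dendritic markers Itgax, Flt3, Clec9a, Xcr1 and Ccr9 overlapped. With no filter, all 8 dendritic and all 6 detected B and plasma cell markers had a positive log2 fold change. The lowest adjusted p was 0.754 for the dendritic and 0.672 for the B and plasma cell markers tested (edgeR). In CPM, Zbtb46 and Sdc1 were among the 12.9% of all genes tested whose genotypes did not overlap. Irf8 overlapped on both scales. Muscle fibre markers, at 224000 TPM or more in every library, matched the tissue label.

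All 7 adipocyte markers tested had a negative log2 fold change, 6 of them at the 1.5-fold criterion, which 6.64% of all genes passed in either direction. At an adjusted p of 0.05, edgeR's quasi-likelihood test called 0 of them, DESeq2 called 1 and the edgeR exact test called 4, against 0.0237%, 0.877% and 0.853% of all genes. In CPM, 5 of the 7 did not overlap between genotypes, against 12.9% of all genes. Adipoq, the adipocyte hormone adiponectin, measured 11.23, 28.7 and 114.13 TPM in MI4KO and 1.17, 9.18 and 2.05 TPM in MI4OE. The summed TPM of the 7 was 376, 964 and 2110 in MI4KO and 741, 401 and 349 in MI4OE. Fabp4 made up most of that sum in MI4OE replicate 1, with 730.73 of the 741 TPM. MI4KO replicate 3, the highest library for Irf7, Irf9 and the interferon-stimulated genes, was also the highest for adipocyte and macrophage markers. The part of fat or macrophage content in those values was not tested.

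The genes whose log2 CPM followed each member most closely over the 6 libraries are given as a description, among 11296 candidates, so that high coefficients are easily found over so few libraries. Trappc12 (Pearson r = 0.997) and Stk10 (0.991) followed Irf4, with Trappc12 at 10.3, 9.19 and 10.2 CPM in MI4KO and 15.9, 16.6 and 16.5 CPM in MI4OE. Bst2, an interferon-stimulated membrane protein, followed Irf7 (0.989), as did Neurl3 (0.983). Stat6 (0.964) and Sgsm2 (0.984) followed Irf9. Plscr4 (0.999) followed Irf1.

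For the members with little variation, the closest genes were Pfkfb3 (0.999) and Dtx3l (0.995) for Irf2, Angptl7 (0.994) and Dpm2 (0.994) for Irf3, and Ap5b1 (0.981) and Rab5a (0.978) for Irf8. Acot7 (0.997) and Dctn5 (0.992) were closest to Irf5. All of these share the same 6 libraries, depths and 2 genotypes.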

How the data were processed

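Gastrocnemius RNA was made into stranded mRNA libraries, 3 per genotype. Per the labels, the authors used bcl2fastq 2.17, Bowtie2 2.1.0 and RSEM 1.2.15; the build was not given in the sources used here. The deposited expected counts are RSEM estimates, not normalized, and need not be whole. The authors' TPM values and percent shares per transcript come from the same RSEM runs. The authors' comparison tables (fold changes, p-values, scaled signal) were not used.

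Expected counts were rounded and filtered with filterByExpr (minimum count 10, minimum total 15). They were then scaled by TMM and compared with edgeR's quasi-likelihood test (edgeR 4.0.16, limma 3.58.1, R 4.3.3), with Benjamini-Hochberg adjustment over all genes tested. The scripts were tested on simulated data. Standard errors and 95% intervals follow from the F statistic and its total degrees of freedom. These are the residual ones plus prior ones that edgeR estimates from all genes tested. DESeq2 1.42.0, other scalings and filters, TPM in limma with pseudocounts of 0.1 and 1, and fits without each replicate were alternatives. A TMM fit without the 100 most abundant genes and bias-adjusted deviances were added after seeing the data.

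Groups came from the genotype label, and replicate numbers follow the order of deposition. Each library title carries its own number and the study gives 3 gastrocnemius samples per genotype, but whether each is from a different mouse is not stated, so p-values measure the spread between these libraries. Members and gene lists were chosen with earlier results of these data known. Named genes were the 8 IRF genes, Gt(ROSA)26Sor, up to 4 genes per list by lowest unadjusted p and those past an adjusted p of 0.05, and the 2 genes most correlated with each member among genes with a mean CPM of at least 1. Fabp4, Pax5, Ifnz, Ifng, Siglech, Cd209a, Spi1 and Batf lie outside this rule and were chosen after their values were seen. Promoters are RefSeq sequences of GRCm38.p6. Some genes that these rules cover are not reported here.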

Additional observations from a re-analysis of the deposited data

How the results depend on the processing

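No paired analysis was possible because no label ties a library of one genotype to one of the other. Over the fits that leave out 1 library each, 0 to 1 members were called and 1 to 2 passed the 1.5-fold criterion. Both moves came without MI4KO replicate 1, when Irf4 had an adjusted p of 0.0587 (log2 fold change 12.61, range 6.37 to 12.61 over all alternatives) and Irf7 joined at the criterion. All other alternatives called Irf4. The sign of Irf2, which lay at -0.00, turned with a mean CPM of at least 1 (0.0018), total counts (0.0771), the exact test (1e-04), limma on TPM with pseudocounts of 1 (0.0571) and 0.1 (0.0632), and TMM without the most abundant genes (3e-04). Leaving out 1 library gave -0.0837 to 0.0666 for Irf2, -0.5432 to 1.6901 for Irf5, -0.1433 to 0.0774 for Irf8 and -0.4256 to 0.1408 for Irf9, and Irf8 was -0.0107 without a filter. Irf1, Irf3 and Irf7 kept their sign in all 16 alternatives. Among all genes, DESeq2 called 111 and the exact test 108, against 1 to 4 in the other fits, and total-count scaling shifted the median of all genes by 0.0896. The share of Irf4 in the family TPM of MI4OE was 61.6% to 74.7% when 1 MI4OE library was left out. The 3 libraries per genotype limit Irf5 and Irf7.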
